A study of Mus musculus with 4 samples.

Results

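The genes described here are 30 members of the cholesterol and fatty acid synthesis pathways, measured in mouse hippocampus. They were chosen by name, with earlier results of these data known. Of these, 7 act from acetyl-CoA to farnesyl diphosphate (the mevalonate steps) and 11 from the making of squalene to cholesterol (the sterol steps). A further 6 sense or switch sterol synthesis (regulation) and 6 make fatty acids. All 30 were found among the 23466 gene symbols of the deposited table, Msmo1 under its older symbol Sc4mol, and all 30 passed the filter on low values that left 18127 genes for testing. The mutant libraries, 38 and 39, carry the genotype Atp6ap2Camk2aCre/0, titled ko and described as a conditional het. The wild-type libraries, 11 and 73, are labelled wt. All 4 came from frozen hippocampus of C57BL/6N mice at postnatal day 30. The Camk2a promoter drives Cre in forebrain excitatory neurons, so astrocytes, oligodendrocytes and other cells of the tissue keep Atp6ap2. The labels do not tie each sample to its own animal, so the spread behind the p-values is that between 4 tissue samples and may be technical.

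Cholesterol is built from acetyl-CoA through mevalonate, the isoprenoid farnesyl diphosphate, squalene and lanosterol, while fatty acids are built from cytosolic acetyl-CoA through malonyl-CoA and are then elongated and desaturated. Transcription of both routes is driven by the SREBP factors, which SCAP carries from the endoplasmic reticulum to the Golgi for cleavage when sterols are low and which INSIG proteins hold back when sterols are high. The brain makes its own cholesterol, since that of blood lipoproteins does not cross the blood-brain barrier, and oligodendrocytes use much of it for myelin. Atp6ap2 encodes an accessory protein of the V-ATPase, the proton pump that acidifies lysosomes, where cholesterol taken up by cells is released.

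The libraries held between 10023033 (wild-type 73) and 18339838 (wild-type 11) read equivalents over genes before scaling. A read equivalent is the deposited sum of aligned bases divided by the 42 bases of 1 read, and all levels here are read equivalents after the authors' scaling. Atp6ap2 itself stood at 2551 and 2522 in mutants 38 and 39, against 2312 and 2637 in wild-types 11 and 73, a log2 fold change of 0.04 ± 0.10 (SE; limma adjusted p = 0.991) whose 95% interval ran from -0.21 to 0.29. No drop of the targeted gene was detectable in the summed transcript signal, so this gene does not check the labels. Many cells of the tissue lack the Cre, and the mutants are described as a conditional het. The part of either was not tested. Over all genes 1 was called, Apold1, at a log2 fold change of 2.55. Choroid plexus markers, which belong to tissue beside the hippocampus, summed to 83351 and 2918 in mutants 38 and 39, against 49790 and 3782 in wild-types 11 and 73, so each group holds 1 library high in them and 1 low. The neuron markers with the highest means, Camk2a, Snap25 and Syt1, were abundant in every library, between 15963 and 27998.

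None of the 30 genes passed the test in either direction: their limma adjusted p-values lay between 0.989 and 0.997, and 0 were called, where 0.00552% of all genes were called higher and 0.0% lower. The log2 fold changes, mutant minus wild-type, were small, from -0.25 for Tm7sf2 to 0.38 for Stard4, with a median of 0.10 beside 0.01 over all genes. The value of Tm7sf2 was -0.08 without mutant 38 and -0.42 without mutant 39. The middle of the list, between its quartiles, spanned -0.08 to 0.20, against -0.14 to 0.15 over all genes. Fold changes were positive for 18 of the 30 genes (60.0%, beside 51.3% of all genes). Both mutants lay above both wild-types for 13 of 30 (43.3%, beside 16.8% of all genes) and below them for 3 of 30 (10%, beside 16.5%). Because the genes were chosen with earlier results of these data known, the difference between these shares was not tested. At an unadjusted limma p under 0.05 there were 2 higher genes, Hmgcs1 and Insig1, where 2.18% of all genes stood, and 0 lower genes, where 1.75% stood. The 95% interval of the fold change included 0 for 28 of the 30 genes, and its median half-width was 0.31 on the log2 scale. In bulk tissue, fewer cells of a type and less RNA per cell cannot be told apart.

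**Figure D1:**
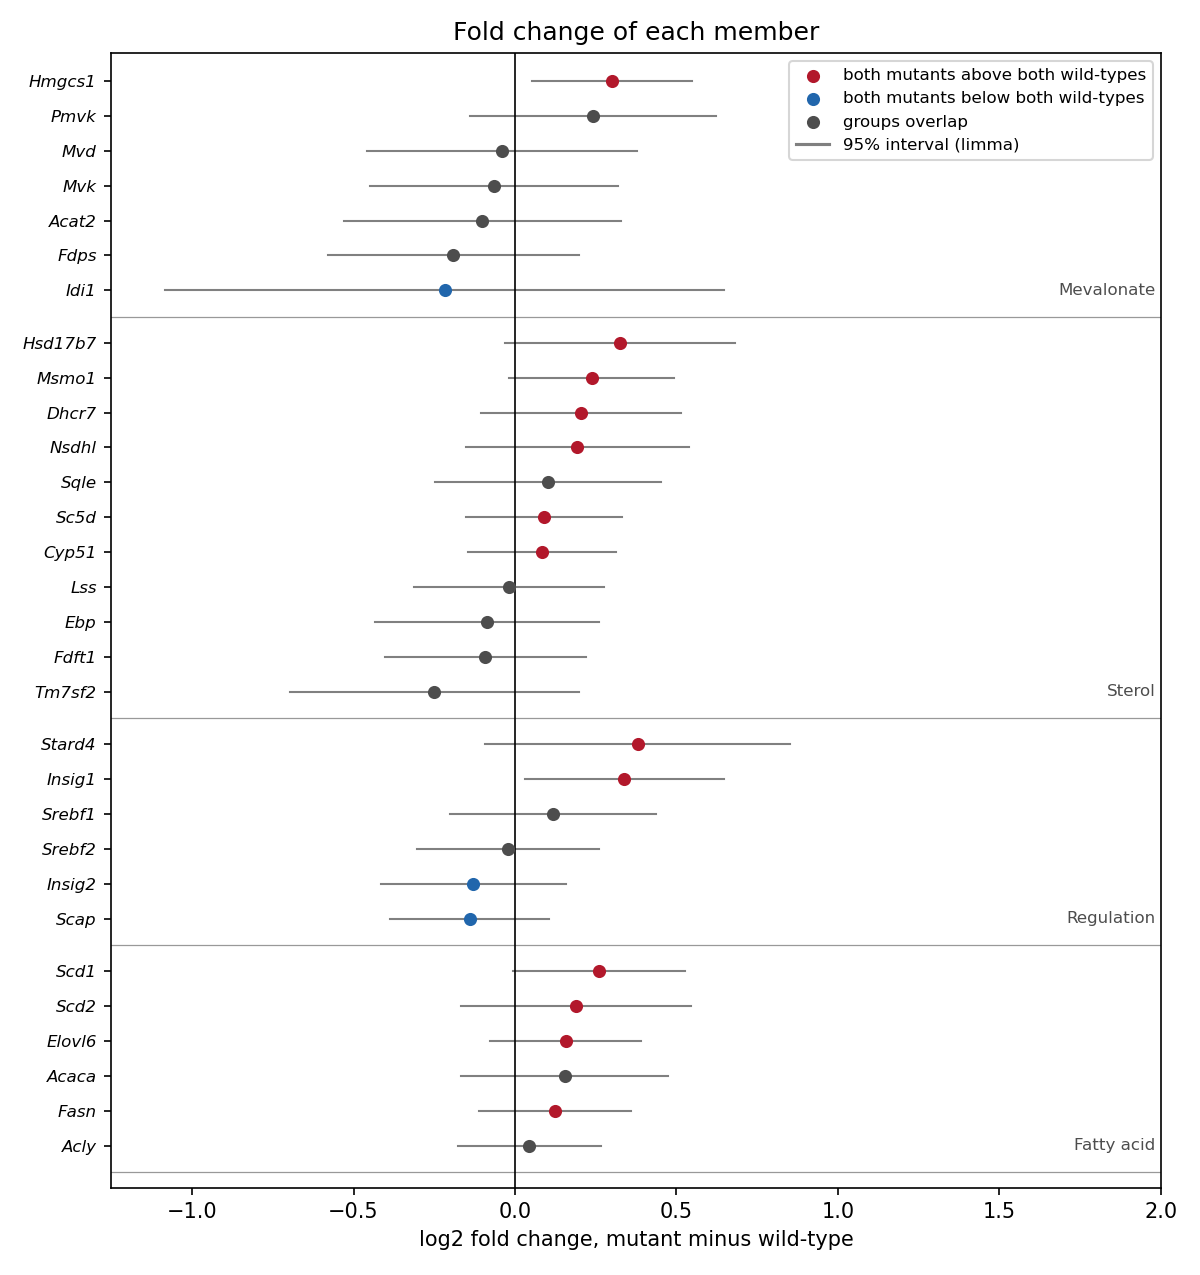
Log2 fold change (mutant minus wild-type, x axis) of each of the 30 genes by role, with its 95% limma interval as a line; colour marks genes with both mutants above both wild-types (13), below them (3) or overlapping groups. Points range from -0.25 (Tm7sf2) to 0.38 (Stard4), and the intervals of Hmgcs1 and Insig1 alone lie clear of 0.

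The promoters of 5 genes are shown because these genes differ in direction and in sterol-related motifs: Hmgcs1, Insig1, Msmo1 and Fasn had both mutants above both wild-types, and Scap had them below. Each sequence runs 5′ to 3′ on the gene's strand from 250 bases before to 50 bases after the RefSeq start, on GRCm38.p6. Capitals mark the sterol regulatory element TCACNCCAC and the CCAAT box, which reads ATTGG on the other strand. The windows are chr13:119690101-119690400 (plus strand) for Hmgcs1, chr5:28071162-28071461 (plus) for Insig1, chr8:64733529-64733828 (minus) for Msmo1, chr11:120824498-120824797 (minus) for Fasn and chr9:110333038-110333337 (plus) for Scap.
Hmgcs1: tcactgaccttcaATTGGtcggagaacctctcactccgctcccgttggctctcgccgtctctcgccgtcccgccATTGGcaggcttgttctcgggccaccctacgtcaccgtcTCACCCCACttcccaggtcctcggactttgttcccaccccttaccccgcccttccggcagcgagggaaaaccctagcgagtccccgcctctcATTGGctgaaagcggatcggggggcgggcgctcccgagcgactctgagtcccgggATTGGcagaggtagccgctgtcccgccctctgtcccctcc
Insig1: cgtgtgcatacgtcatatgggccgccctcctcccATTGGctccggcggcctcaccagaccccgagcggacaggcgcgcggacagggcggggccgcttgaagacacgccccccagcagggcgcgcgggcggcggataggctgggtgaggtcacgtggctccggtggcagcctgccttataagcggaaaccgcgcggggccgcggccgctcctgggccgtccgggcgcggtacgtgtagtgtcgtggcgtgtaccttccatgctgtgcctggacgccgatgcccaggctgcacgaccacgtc
Msmo1: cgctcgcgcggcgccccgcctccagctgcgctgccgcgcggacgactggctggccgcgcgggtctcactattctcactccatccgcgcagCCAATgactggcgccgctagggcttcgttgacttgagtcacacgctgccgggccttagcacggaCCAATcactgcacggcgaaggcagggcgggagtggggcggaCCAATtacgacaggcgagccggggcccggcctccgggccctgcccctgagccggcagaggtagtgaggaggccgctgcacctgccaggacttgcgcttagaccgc
Fasn: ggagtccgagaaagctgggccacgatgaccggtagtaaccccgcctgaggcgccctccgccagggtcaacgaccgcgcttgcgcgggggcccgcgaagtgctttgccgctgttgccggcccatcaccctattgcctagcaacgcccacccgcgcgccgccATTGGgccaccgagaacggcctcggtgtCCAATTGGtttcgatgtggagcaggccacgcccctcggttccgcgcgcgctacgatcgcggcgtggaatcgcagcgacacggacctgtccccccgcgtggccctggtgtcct
Scap: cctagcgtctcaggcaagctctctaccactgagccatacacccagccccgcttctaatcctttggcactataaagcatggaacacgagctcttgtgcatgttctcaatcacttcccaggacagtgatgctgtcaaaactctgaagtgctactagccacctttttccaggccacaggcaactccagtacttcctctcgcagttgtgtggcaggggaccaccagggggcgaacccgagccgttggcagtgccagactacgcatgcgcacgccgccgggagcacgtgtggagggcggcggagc
The Hmgcs1 window holds the sterol regulatory element at position -137 from the start and CCAAT boxes at -237, -176, -45 and 11. Msmo1 holds CCAAT boxes at -160, -96 and -55, and Insig1 has 1 at -216. Fasn has them at -90, -62 and -59, the last pair overlapping on opposite strands, and the Scap window has none. Another Scap window, from a further RefSeq start and not shown, has none either. The other genes with both mutants below both wild-types, Idi1 and Insig2, do hold CCAAT boxes. These lie at -45 and -14 for Idi1 and at -136, -46 and -29 for Insig2. Elovl6, with both mutants above both wild-types, holds no CCAAT box, and neither do Acaca and Acat2, whose groups overlap. The 5 genes shown were chosen with earlier results known, and no link of motif to direction was tested.

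Promoter entries existed for 24 of the 30 genes, with 32 promoters. Fdft1, Fdps, Scd1, Scd2, Sqle and Stard4 were not matched. Both strands of each 300-base window were searched for 4 motifs. The sterol regulatory element TCACNCCAC was in 1 of the 32 promoters (3.12%), that of Hmgcs1, and in 1.24% of all 32851 promoters. The CCAAT box, bound by NF-Y, was in 21 of the 32 (65.6%) and in 37.4% of all promoters. The GC box GGGCGG, bound by Sp1, was in 24 of the 32 (75%) and in 35.7% of all promoters. The E-box CACGTG was in 6 of the 32 (18.8%) and in 7.15% of all promoters. Matches are described as letters in these windows, and absence of a match says nothing about binding.

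Among the mevalonate genes, Hmgcs1 had the smallest p and the largest fold change. It encodes cytosolic HMG-CoA synthase, which makes the precursor of mevalonate. Hmgcs1 had 3128 and 3378 read equivalents in mutants 38 and 39, against 2791 and 2494 in wild-types 11 and 73, and averaged 3253 ± 177 in mutants and 2642 ± 210 in wild-types (SD, n = 2 each). Both mutants were above both wild-types, at a log2 fold change of 0.30 ± 0.10 (95% interval 0.05 to 0.55; limma adjusted p = 0.989), which ranked 321 of the 18127 genes by p. Without each library in turn the fold change was 0.36 (mutant 38), 0.25 (mutant 39), 0.38 (wild-type 11) and 0.22 (wild-type 73). A further Hmgcs1 record, not used here, averaged only 6.84 read equivalents over the 4 libraries, with a fold change of -0.31. Pmvk, phosphomevalonate kinase, had 434 and 404 in mutants 38 and 39, against 404 and 311 in wild-types 11 and 73, a fold change of 0.24 ± 0.16. Wild-type 73 was the low library and wild-type 11 lay level with mutant 39, and without wild-type 73 the fold change was 0.05. Fdps, farnesyl diphosphate synthase, had 516 and 580 in mutants 38 and 39, against 539 and 724 in wild-types 11 and 73, a fold change of -0.19 ± 0.16. Here wild-type 73 was high, and without it the fold change was 0.02.

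The other mevalonate genes were near or below 0. Idi1, isopentenyl diphosphate isomerase, was lower in both mutants, at 15.6 and 16.5 against 17.4 and 20.3 in wild-types 11 and 73, but its level was the lowest of the 30 genes and its fold change was -0.22 ± 0.37. Acat2, which makes acetoacetyl-CoA, had a fold change of -0.10 ± 0.18, Mvk (mevalonate kinase) -0.06 ± 0.16 and Mvd (mevalonate diphosphate decarboxylase) -0.04 ± 0.18, with overlapping groups. Acat2 turned positive without mutant 38 (0.05) or wild-type 11 (0.02), Mvd without mutant 38 (0.07) or wild-type 73 (0.13), and Mvk without wild-type 73 (0.07). Of the 7 genes, 1 had both mutants above both wild-types and 1 had both below (16.8% and 16.5% of all genes). Their median was -0.06, with 0.05 without mutant 38, 0.05 without wild-type 73 and -0.20 without wild-type 11.

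Of the sterol genes 6 of 11 had both mutants above both wild-types and 0 had both below (16.8% and 16.5% of all genes), with a median fold change of 0.09. Hsd17b7, a ketosteroid reductase of the demethylation complex, had 464 and 499 in mutants 38 and 39, against 431 and 343 in wild-types 11 and 73, a fold change of 0.32 ± 0.15 (95% interval -0.03 to 0.68; limma adjusted p = 0.989). Msmo1, the methylsterol oxidase, had 1174 and 1310 in mutants 38 and 39, against 1086 and 1018 in wild-types 11 and 73, a fold change of 0.24 ± 0.11 (95% interval -0.02 to 0.49). For both genes the mutants lay above both wild-types. Dhcr7, which makes cholesterol in the final step of one route, had 350.4 and 357 in mutants 38 and 39, against 316 and 297 in wild-types 11 and 73, a fold change of 0.21 ± 0.13. Its 4 values do not overlap between groups. Without wild-type 73 the Hsd17b7 fold change was 0.16, and without wild-type 11 it was 0.49.

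Nsdhl, a sterol dehydrogenase, Sc5d, the sterol desaturase, and Cyp51, the lanosterol demethylase, had fold changes of 0.19 ± 0.15, 0.09 ± 0.10 and 0.08 ± 0.10, also with both mutants above. Groups overlapped for Sqle (squalene epoxidase, 0.10 ± 0.15), Lss (lanosterol synthase, -0.02 ± 0.12), Ebp (a sterol isomerase, -0.09 ± 0.15), Fdft1 (squalene synthase, -0.09 ± 0.13) and Tm7sf2 (a sterol reductase, -0.25 ± 0.19). Sqle was -0.09 without wild-type 11, Lss was 0.03 without it, and Fdft1 was 0.05 without wild-type 73. Wild-type 73 was the highest library for 4 of the 11 genes and the lowest for 4 (36.4% each), near the 29.96% and 30.5% of all genes.

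Among the regulators, the INSIG pair had fold changes of opposite sign. Insig1, whose protein retains SCAP in the endoplasmic reticulum and whose gene is itself an SREBP target, had 1003 and 1078 in mutants 38 and 39, against 911 and 742 in wild-types 11 and 73, a fold change of 0.34 ± 0.13 (95% interval 0.03 to 0.65; limma adjusted p = 0.989). Insig2, its relative, had 529 and 487 in mutants 38 and 39, against 532 and 580.0 in wild-types 11 and 73, a fold change of -0.13 ± 0.12. Mutants were above both wild-types for Insig1 and below for Insig2, by a narrow margin at wild-type 11. The ratio of Insig1 to Insig2 was 1.90 and 2.21 in mutants 38 and 39, against 1.71 and 1.28 in wild-types 11 and 73, a difference of 0.47 on the log2 scale that was 0.26 without wild-type 73 and 0.68 without wild-type 11. An exact two-sided permutation test gave p = 0.333, the smallest that 2 against 2 libraries allow, so the ratio cannot be called different. Insig1 was 0.49 without wild-type 11 and 0.19 without wild-type 73.

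Stard4, a cholesterol carrier between membranes, had 152 and 187 in mutants 38 and 39, against 141 and 119 in wild-types 11 and 73, a fold change of 0.38 ± 0.20 (95% interval -0.09 to 0.85). Both mutants were above. The Stard4 fold change was 0.23 without mutant 39 and 0.26 without wild-type 73, against 0.53 without mutant 38 and 0.50 without wild-type 11. Scap, the SREBP escort, had 1860.2 and 1801 in mutants 38 and 39, against 1897 and 2145 in wild-types 11 and 73, a fold change of -0.14 ± 0.10. Its mutants were just under wild-type 11. Srebf2, the factor of the cholesterol genes, had 2045 and 2465 in mutants 38 and 39, against 2364 and 2197 in wild-types 11 and 73, a fold change of -0.02 ± 0.12. Srebf1, which favours fatty acid genes, had 1560 and 1324 in mutants 38 and 39, against 1453 and 1207 in wild-types 11 and 73, a fold change of 0.12 ± 0.13. The groups overlapped for both factors. Srebf2 was 0.11 without mutant 38 and 0.03 without wild-type 11, and Srebf1 was -0.02 without wild-type 73 and within rounding of 0 without mutant 38. The log2 ratio of Srebf2 to Srebf1 was 0.39 and 0.90 in mutants 38 and 39, against 0.70 and 0.86 in wild-types 11 and 73 (exact permutation p = 1).

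All 6 fatty acid genes had positive fold changes, 4 had both mutants above both wild-types and 0 had both below, with a median of 0.16. Over all genes 51.3% were positive, 16.8% lay above and 16.5% below. The median was 0.09 without wild-type 73 and 0.28 without wild-type 11. Scd1 and Scd2 encode stearoyl-CoA desaturases, of which Scd2 is the main brain form. Scd1 had 3128 and 2872 in mutants 38 and 39, against 2697 and 2325 in wild-types 11 and 73, a fold change of 0.26 ± 0.11 (95% interval -0.01 to 0.53; limma adjusted p = 0.989). Without wild-type 73 the Scd1 fold change was 0.15. Scd2 had 27920.2 and 27608 in mutants 38 and 39, against 27470 and 21592 in wild-types 11 and 73, a fold change of 0.19 ± 0.15. For Scd2 wild-type 11 lay close under the mutants and wild-type 73 was low: without wild-type 73 the fold change was 0.02, and without wild-type 11 it was 0.36. The log2 ratio of Scd2 to Scd1 was 3.16 and 3.26 in mutants 38 and 39, against 3.35 and 3.21 in wild-types 11 and 73 (exact permutation p = 0.667). Fasn, fatty acid synthase, had 7485 and 7856 in mutants 38 and 39, against 7224 and 6847 in wild-types 11 and 73, a fold change of 0.12 ± 0.10. Elovl6, which lengthens C16 chains, had 1456 and 1434 in mutants 38 and 39, against 1344 and 1248 in wild-types 11 and 73, a fold change of 0.16 ± 0.10. Both genes separated the groups by small margins. Acaca (acetyl-CoA carboxylase) was 0.15 ± 0.14, turning to -0.03 without wild-type 73, and Acly (ATP citrate lyase) 0.04 ± 0.09, with overlapping groups.

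**Figure D2:**
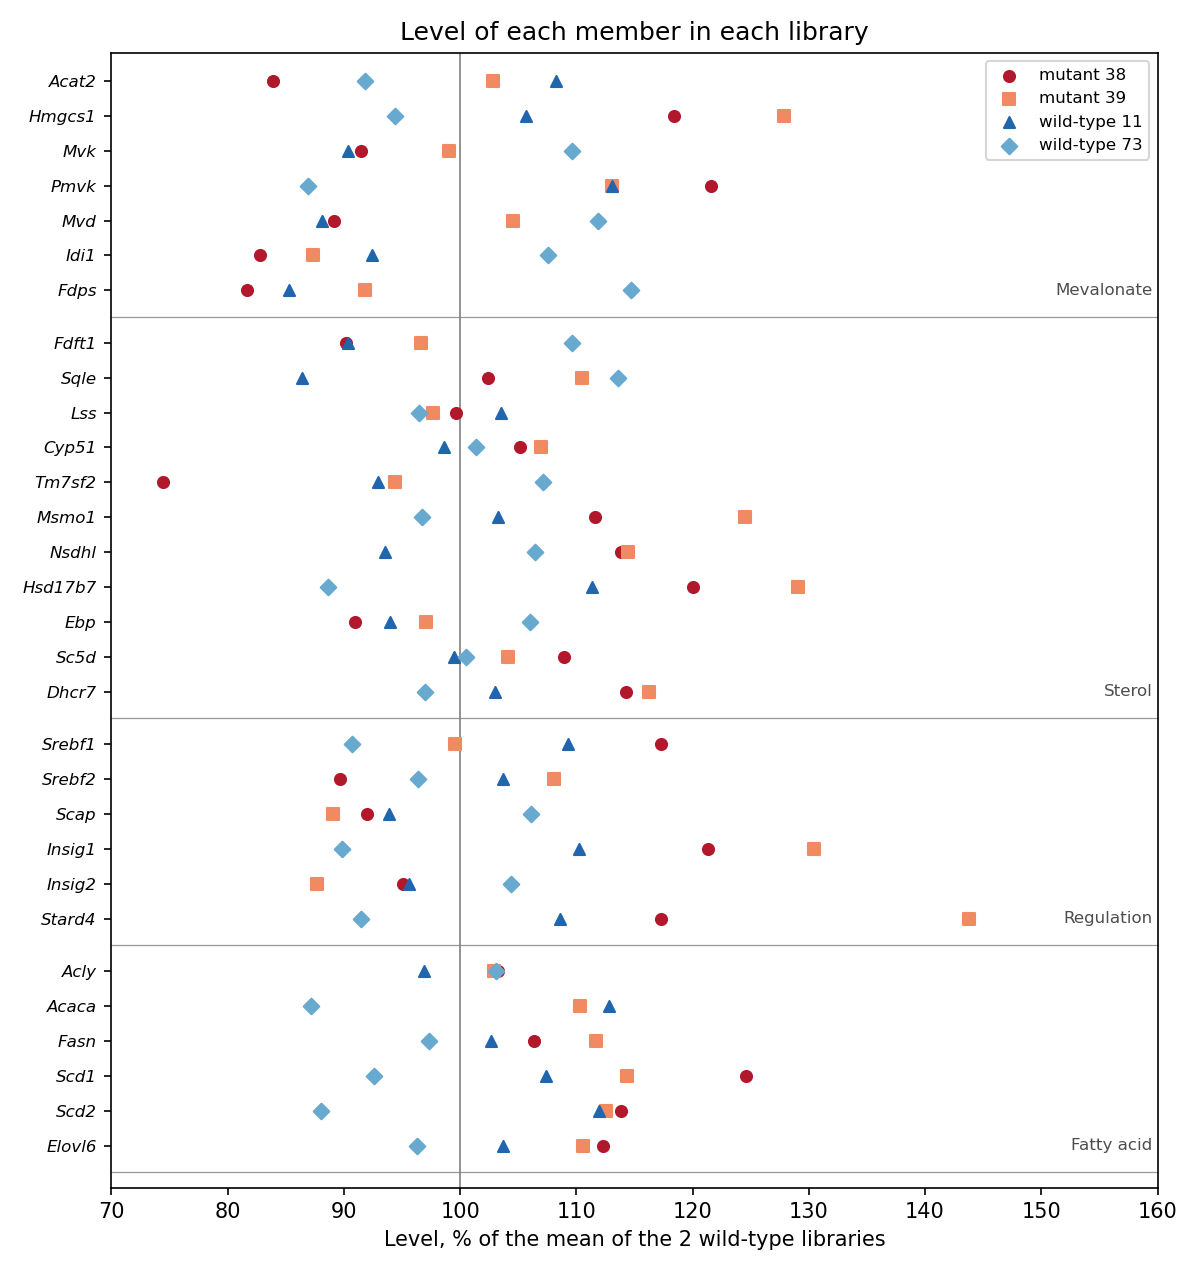
Level of each gene in each library (x axis, percent of the mean of the 2 wild-type libraries), in role groups, with a symbol for each library. The 2 mutants lie right of both wild-types for 13 genes, such as Hmgcs1, Insig1 and Stard4, and wild-type 73 is the lowest symbol for 14.

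Wild-type 73, the library with the fewest reads, often lay at an extreme. It was the lowest of the 4 libraries for 14 of the 30 genes (46.7%, beside 30.5% of all genes) and for 5 of the 6 fatty acid genes, and the highest for 10 of 30 (33.3%, beside 29.96% of all genes) and for 4 of the 7 mevalonate genes. Oligodendrocyte markers had the same order of library medians as the fatty acid genes, but not every gene followed it. Mutant 38 was the highest library for 15 of the 16 markers and for 4 of the 6 fatty acid genes (26.5% of all genes). The summed level of the markers was 95694 and 85976 in mutants 38 and 39, against 79656 and 57552 in wild-types 11 and 73. Of 16 markers 12 had both mutants above both wild-types and 0 had both below, 0 were called, 8 had an unadjusted limma p under 0.05 and were higher, and wild-type 73 was lowest for 16 of 16. Over all genes 16.8% had both mutants above, 16.5% both below, and 2.18% were higher at that unadjusted p. The abundant ones were Mbp, at 46308 and 41316 in mutants 38 and 39, against 38187 and 28023 in wild-types 11 and 73, and Cnp, at 7770.0 and 7149, against 6585 and 5433. The median fold change of the 16 markers was 0.44, with 0.20 without wild-type 73 and 0.64 without wild-type 11. The library medians of the fatty acid genes, as deviations from the mean of the 4 libraries, were 0.08 and 0.07 in mutants 38 and 39, against -0.02 and -0.18 in wild-types 11 and 73, and those of the oligodendrocyte markers were 0.32 and 0.14, against 0.01 and -0.44. The part of oligodendrocyte content in these fold changes was not tested.

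For the other cell types 0 markers were called. Astrocyte markers summed to 148677 and 160895 in mutants 38 and 39, against 149468 and 142152 in wild-types 11 and 73, with 5 of 11 having both mutants above and a median fold change of 0.11, or 0.05 without wild-type 73. Neuron markers summed to 119956 and 135896 in mutants 38 and 39, against 117445 and 140636 in wild-types 11 and 73, with 0 of 10 separating the groups. The mevalonate genes had library medians of -0.13 and 0.07 in mutants 38 and 39, against -0.07 and 0.17 in wild-types 11 and 73, with wild-type 73 and mutant 39 high, as for the neuron markers (-0.10 and 0.11, against -0.13 and 0.13). Median fold changes of the precursor, microglia and endothelial markers were 0.27 (8 genes), 0.05 (9) and 0.18 (8), with groups separating upward for 3, 2 and 3 and downward for 2, 1 and 2. Shares over all genes, for every list in this paragraph, were 16.8% upward and 16.5% downward. Without mutant 38 the precursor median was 0.03 and the endothelial one 0.04, and without wild-type 73 the microglia median was 0.00 and the endothelial one 0.05. The part of these cell types was not tested either.

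**Figure D3:**
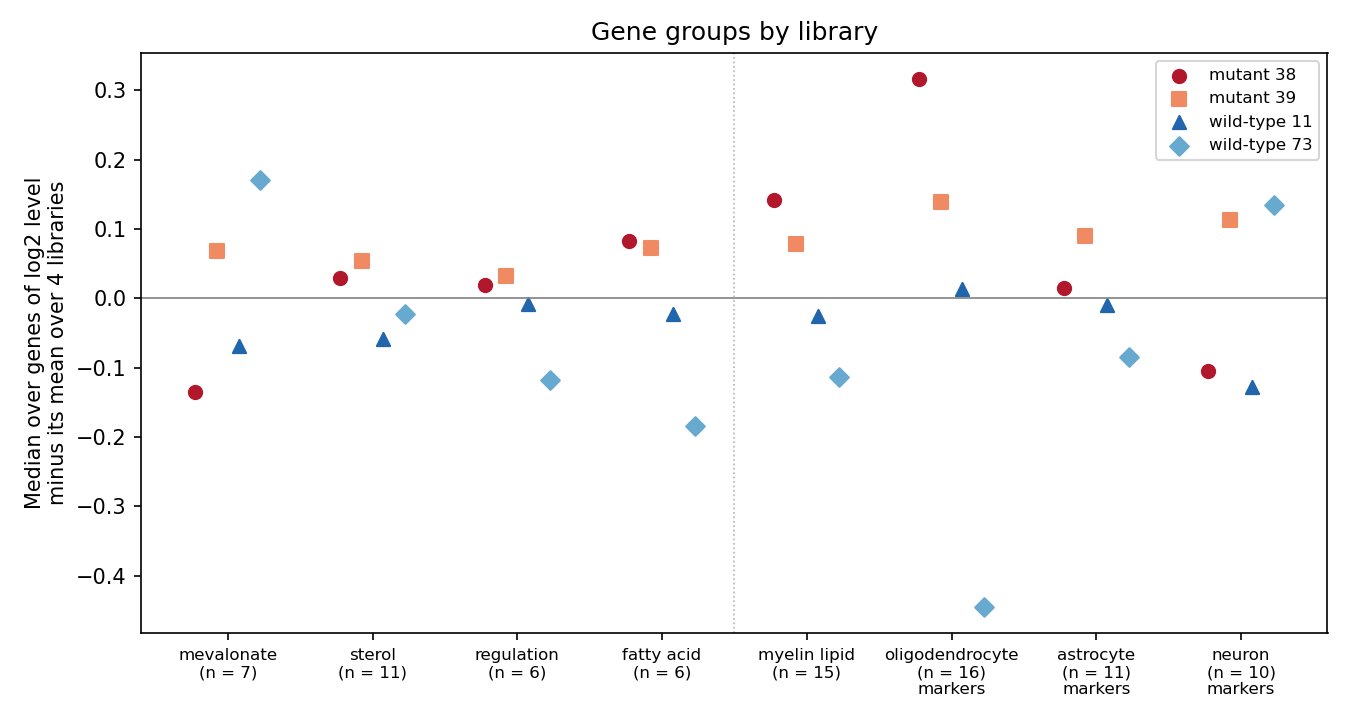
Median over genes of the log2 level minus its mean over the 4 libraries (y axis) for each role group, the myelin lipid list and 3 marker lists (x axis), with a symbol for each library. Oligodendrocyte markers spread widest, from 0.32 in mutant 38 to -0.44 in wild-type 73, and the fatty acid genes have the same library order.

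Within the pairs formed by choroid plexus marker level, the genes with the smallest p-values had larger fold changes in the low pair. In the pair high in these markers (mutant 38 against wild-type 11) the median over the 30 genes was 0.07, and in the pair low in them (mutant 39 against wild-type 73) it was 0.12, each from 1 library a group and without a test. Hmgcs1 was 0.16 in the high pair and 0.44 in the low pair, Insig1 0.14 and 0.54, Stard4 0.11 and 0.65, Hsd17b7 0.11 and 0.54, and Scd1 0.21 and 0.30. Scap and Insig2 were -0.03 and -0.01 in the high pair and both -0.25 in the low pair. The pairs were not equal in choroid plexus level: its markers had median fold changes of 0.76 in the high pair and -0.45 in the low pair. The low pair also holds wild-type 73. Oligodendrocyte markers had medians of 0.25 in the high pair and 0.58 in the low pair. What sets the pairs apart was not tested.

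Some of these genes share sequence with transcripts of other gene names, and the deposited counting is not described, so their values are less certain. Whether those transcripts are copies or come from the same locus was not examined. Of the 42-base windows of its transcript, Fdps shared 88.3% with other genes' transcripts, mainly Gm43738 (78.0%), Acaca 57.3% with Gm5182, Acat2 47.5% with Acat3, Idi1 21.7%, mainly with Gm13502, and Fdft1 12.8% with Gm6781. These 5 genes had a median fold change of -0.10, with 0 separating the groups upward and 1 downward. The other 25 had a median of 0.12, with 13 upward and 2 downward. Over all genes 16.8% separated upward and 16.5% downward. The part of shared sequence in these fold changes was not tested. Windows shared with an antisense transcript were 20.0% of Fdft1, 14.0% of Scap, 14.0% of Hmgcs1, 13.9% of Acat2 and 9.65% of Idi1, and under 5% of each of the other 25 genes. The libraries were made with a strand mark, but whether the counting used it is not given.

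Per length, the 30 genes differed widely in level. As the mean over the 4 libraries of read equivalents per kb of transcript, Scd2 stood at 4793, above Hmgcs1 at 851, Fasn at 732, Acly at 647 and Scd1 at 570.2, while Lss (84.4), Stard4 (29.3) and Idi1 (5.77) were lowest. Scd2 averaged 5090 per kb in mutants and 4497 in wild-types, and Hmgcs1 939 in mutants and 763 in wild-types.

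**Figure D4:**
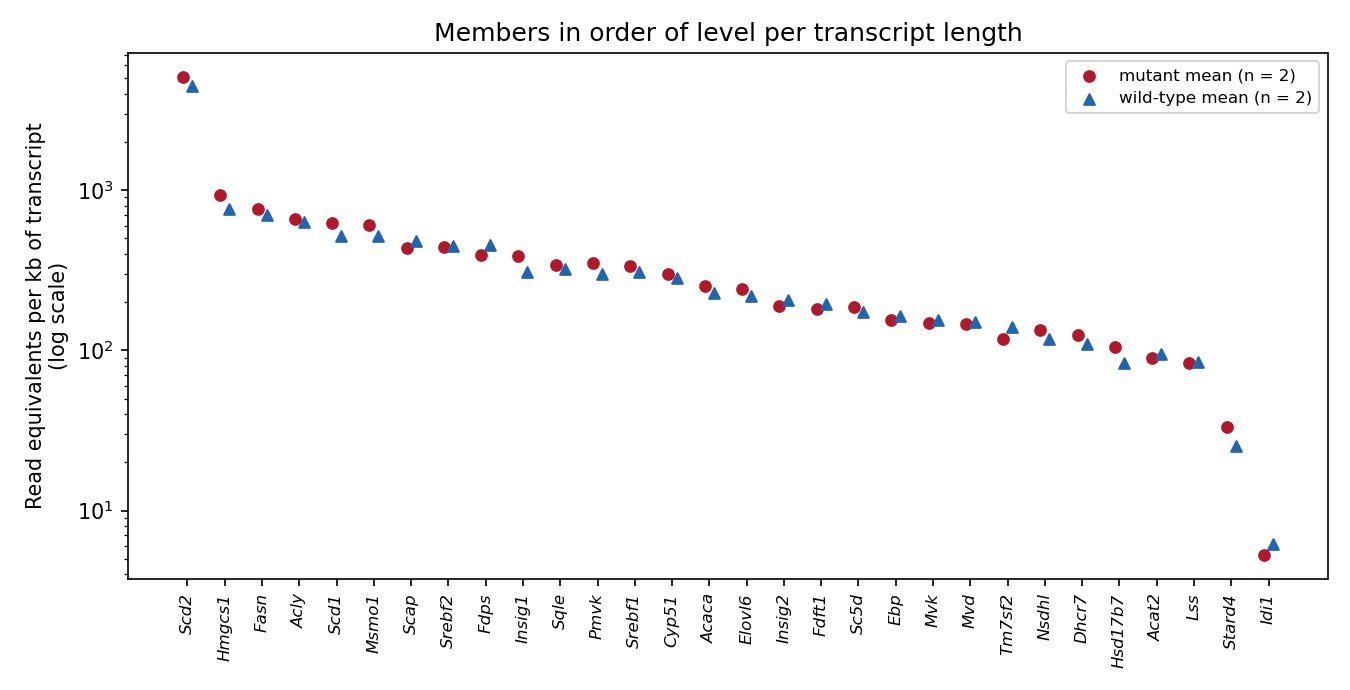
Read equivalents per kb of transcript (y axis, log scale) of the 30 genes in descending order (x axis), as mutant means and wild-type means of 2 libraries each. The genes span from Scd2, at 5090 in mutants and 4497 in wild-types, to Idi1, at 5.30 in mutants and 6.23 in wild-types.

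The authors' deposited table has its own p-value for each record. In it 1 of the 30 genes, Hmgcs1 (p = 0.0218 in the authors' deposited table), was under 0.05, where 1.74% of all records were, and 0 were after Benjamini-Hochberg adjustment, where 0.195% of records were. Insig1 had p = 0.0524 and Scd1 p = 0.0624 in the authors' deposited table. The header does not say whether these were already adjusted.

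Other lipid pathways were read from gene lists, also chosen with earlier results of these data known, with 0 genes called in each. Over all genes 16.8% had both mutants above both wild-types, 16.5% had both below and 51.3% had a positive fold change. Of 26 tested genes of fatty acid elongation, desaturation and activation, 23 had positive fold changes, 11 had both mutants above both wild-types and 0 had both below (median 0.11). Acsl3, an acyl-CoA synthetase of lipid droplets, had 4558 and 4670 in mutants 38 and 39, against 3856 and 3736 in wild-types 11 and 73, a fold change of 0.28 ± 0.09. Thrsp, a lipogenic protein, was 0.32 ± 0.14 and Elovl5 0.19 ± 0.11, both with the mutants above. Of 15 myelin lipid genes 8 had both mutants above and 0 below (median 0.23). Sgms1, a sphingomyelin synthase, had 1107 and 956 in mutants 38 and 39, against 778 and 726 in wild-types 11 and 73, a fold change of 0.45 ± 0.12, and Degs1, a ceramide desaturase, was 0.33 ± 0.13. The library medians of this list had the same order as the oligodendrocyte markers, a list that overlaps it in membership. The part of oligodendrocyte content was not tested.

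Of 25 genes of sterol uptake, efflux and storage, 4 had both mutants above and 3 both below, with a median of -0.00; these are 16% and 12% of the list, near or under the shares over all genes. Mylip, a ubiquitin ligase that marks lipoprotein receptors for degradation, had 302 and 345 in mutants 38 and 39, against 455 and 426 in wild-types 11 and 73, a fold change of -0.45 ± 0.14 (limma adjusted p = 0.989). Ch25h, which makes 25-hydroxycholesterol, had few reads, at 9.85 and 3.07 in mutants 38 and 39, against 20.1 and 15.6 in wild-types 11 and 73, a fold change of -1.495 ± 0.57. Scarb1, a lipoprotein receptor, was 0.26 ± 0.15. Both mutants were below both wild-types for Mylip and Ch25h and above for Scarb1. Of 17 tested genes of SREBP processing and related steps, 5 had both mutants above and 2 below (median 0.10). Isoprenoid branch genes (13; median 0.02) had 3 above and 0 below, with Pdss1, of ubiquinone synthesis, at 0.20 ± 0.17, Icmt, which methylates prenylated proteins, at -0.11 ± 0.12 and Fnta, a farnesyltransferase subunit, at -0.07 ± 0.11. Fatty acid oxidation and ketone genes (16; median 0.05) had 2 above and 1 below, with Oxct1, of ketone use, at 0.12 ± 0.09, Cpt1c at -0.14 ± 0.12 and Cpt1a, the carnitine transferase of entry into mitochondria, at 0.25 ± 0.23.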

How the data were processed

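RNA was sequenced from 2 mutant and 2 wild-type hippocampal samples. Per the labels' protocols, ribosomal RNA was depleted and libraries were strand-marked. GSNAP, DESeq2 and the build mm9 are named in the submitters' processing notes; their roles and versions, the read counter and the annotation are not given there. The authors deposited a signal per transcript record (31315 records): aligned bases divided by 1 scaling factor per library. All values were whole multiples of 1 step per library (100%, within 0.05 of a step), with a pile-up of low records at 42 bases. The deposited p-value column was used as given, then with Benjamini-Hochberg adjustment.

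Values were divided by 42. Each gene took its record with the highest mean. A gene was kept with 1 or more read equivalents in at least 2 libraries. Its log2(read equivalents + 1) entered limma 3.58.1 (variance trend, two-sided) in R 4.3.3, and adjusted by Benjamini-Hochberg over all 18127 genes at 0.05. The pseudocount of 1 shrinks the fold changes of low genes. The script was checked on simulated data. Since the signal is no read count, no count test was run. Ratios of 2 genes used an exact two-sided permutation test. Shared windows used GENCODE M21 transcripts, and promoters RefSeq (GRCm38.p6). Python 3.11.15 and matplotlib 3.10.9 drew the plots.

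Before scaling the libraries held 18328405 (mutant 38), 17543464 (mutant 39), 18339838 (wild-type 11) and 10023033 (wild-type 73) read equivalents, which limits the precision of low genes most in wild-type 73. Alternatives were the pseudocount, filter, scaling, variance model, record choice, a choroid plexus covariate and leaving out each library. The members and lists were chosen with earlier results of these data known. Values are given for the 3 genes with the smallest p-values of each role group and list, for the regulators, Fasn, Scd1, Scd2 and Hmgcs1, and for the most abundant markers, and not all genes that this rule gives are reported here.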

Additional observations from a re-analysis of the deposited data

How the results depend on the processing

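The count of genes called over the whole table depended on the setting: 1 as reported, 0 without the variance trend, 12 with a robust variance prior, 80 when the choroid plexus level was a covariate and 1 to 37 when 1 library was left out. The cause was not tested. Of the 30 genes none passed the adjusted threshold in any of the 15 alternatives with a test; the smallest limma adjusted p was 0.262, for Insig1 without wild-type 11. Of 510 alternative fold changes, 488 kept their sign: 14 changed it when 1 library was left out, 8 within a choroid plexus pair (no test) and 0 in the other settings. Many of these could not change sign by construction. The variance model and the filter leave a gene's fold change as it was, and averaging records does so for the 23 genes with 1 record. The count of kept signs is therefore no measure of robustness.

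The median fold change of the 30 genes was 0.10, with 0.074 to 0.105 when 1 library was left out, 0.071 in the pair high and 0.119 in the pair low in choroid plexus markers. Genes with both mutants above numbered 13, and 12 to 17 over alternatives chosen after seeing the data. Genes with both below numbered 3, with 3 to 10 when 1 library was left out and 5 with libraries rescaled to the same total. Leaving out a library makes separation easier by construction: 31.2% to 36.6% of all genes then lay above and 30.9% to 36.7% below, and 19% lay below after rescaling, so the 10 and the 5 are near the share over all genes.

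Fold changes that reversed with 1 library left out ranged from -0.25 to 0.045 for Acat2, -0.20 to 0.074 for Mvk, -0.21 to 0.13 for Mvd, -0.40 to 0.023 for Fdps, -0.23 to 0.047 for Fdft1, -0.095 to 0.30 for Sqle, -0.070 to 0.032 for Lss, -0.016 to 0.25 for Srebf1, -0.16 to 0.11 for Srebf2 and -0.032 to 0.34 for Acaca. Within the pairs the sign also changed for Mvk (0.017), Mvd (0.016) and Acaca (-0.033) in the high pair and for Acat2 (0.16), Sqle (-0.039), Lss (0.018), Srebf2 (0.17) and Acly (-0.0022) in the low pair. With 1 library left out, the group difference in log2 ratio ranged from 0.26 to 0.68 for Insig1 to Insig2 and from -0.39 to 0.11 for Srebf2 to Srebf1. No paired analysis was possible because the groups share no replicate number, and the choroid plexus pairs were formed from the data, not from the labels.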
